A study of Mus musculus with 12 samples.

Results

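tRNA-Asp-GTC and tRNA-Asn-GTT are the cytosolic tRNAs that carry aspartate and asparagine, and the fragments of both (tRNA-derived fragments, tRFs) were followed through sperm and Sertoli cell libraries of the mouse. The members were chosen by name (mature-tRNA-Asp-GTC and mature-tRNA-Asn-GTT): all reads matched to a mature tRNA whose isoacceptor was Asp or Asn were taken, and each amino acid had a single anticodon. They are 2 of 51 isoacceptors. Each isoacceptor gave the classes tRF5 (reads from the 5′ end), tRF3 (reads from the 3′ end, with or without the CCA tail) and other (all reads annotated to neither end), so that the members make 6 of 153 tRFs.

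Sperm came from the epididymis of C57BL6/J males fed a control diet (CD, 16% of energy from fat) or a high-fat diet (HFD, 69% by the sample labels, a share that differs from the one in the study's methods) for 7 weeks from 4 weeks of age by the labels (the study's text also names another starting age), in 3 libraries per diet that each pooled 3 mice. TM4 is an established mouse Sertoli cell line, Sertoli cells being the supporting cells of the testis tubule. It was left untreated (Ctrl), given compound C (CC, an inhibitor of the kinase AMPK, 10 µM for 12 hours) or made to overexpress the ribonuclease angiogenin from a plasmid (Ang OE), in 2 libraries per group. No vector control is named in the labels, the 2 treated groups share the Ctrl libraries, and the labels do not say whether the TM4 libraries came from separate cultures, so that p-values may measure technical spread.

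A tRNA folds into arms with the anticodon loop in the middle, and after transcription an enzyme adds CCA to its 3′ end, where the amino acid is attached. Angiogenin cuts tRNAs in the anticodon loop. The tRNAs for Asp, Asn, His and Tyr share a G at the first anticodon base that cells replace with queuosine, and the methyltransferase DNMT2 methylates the C at position 38 of tRNA-Asp, in the same loop. The count files used here hold no measure of either modification.

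Reads cannot be assigned to a gene, because most gene copies are identical. A search of the GRCm39 genome for the folded structure found 15 tRNA-Asp-GTC places on 6 chromosomes, of which 13 share 1 sequence, and 12 tRNA-Asn-GTT places on 7 chromosomes, of which 9 share 1 sequence. RefSeq lists 16 and 13 genes, so the search located fewer places than RefSeq has, and 2 tRNA-Asp and 4 tRNA-Asn places could not be paired with a RefSeq name. The shared sequences and 1 variant of tRNA-Asp are shown to place the anticodon and the 3′ end, the end from which the tRF3 reads come. The files give classes of reads and no cut positions. Capitals mark the anticodon and, in tRNA-Asp, also the C at position 38.
tRNA-Asp-GTC, n-TDgtc4 at chr1:170864598-170864669, minus strand, between genes: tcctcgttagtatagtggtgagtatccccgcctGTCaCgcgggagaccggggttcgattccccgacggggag
tRNA-Asp-GTC variant, n-TDgtc16 at chr10:91017959-91018030, minus strand, between genes: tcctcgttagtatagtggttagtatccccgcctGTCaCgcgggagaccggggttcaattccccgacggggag
tRNA-Asn-GTT, n-TNgtt12 at chr3:96405097-96405170, plus strand, between genes: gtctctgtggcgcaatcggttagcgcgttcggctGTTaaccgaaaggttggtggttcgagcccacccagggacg

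The tRNA-Asp genes are 72 bases long and the tRNA-Asn genes 74, with the anticodon starting at base 34 and base 35. All 15 tRNA-Asp places located had the C at position 38, and 0 of the 12 tRNA-Asn places did. No place was followed by CCA in the genome, so a read that ends in CCA carries bases that the gene does not encode. The genes of tRNA-Asp and tRNA-Asn shared 0 of the 15-base windows that the shortest reads cover, counted with the CCA added, so a read of that length without a mismatch does not fall in both. Gene names were assigned by the spacing of RefSeq genes along a chromosome, and the GENCODE vM39 annotation put 10 of the tRNA-Asp places and 5 of the tRNA-Asn places between genes. A further tRNA-Asp place, n-TDgtc3, overlaps an exon of Fcgr3, and a tRNA-Asn place on chromosome 10 overlaps an exon of Ndufs7.

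Libraries held 31710445 to 64038150 clean reads, and levels are given as RPM, the reads of a tRF scaled to the clean reads without rRNA. Reads matched to mature tRNAs numbered 2549635 to 4595103 in sperm and 1272431 to 2702832 in TM4 cells. Markers of male germ cells were present in all sperm libraries (8 of 8 miRNA precursors), as were markers of epithelium, smooth muscle and red blood cells (all markers of each list). Red blood cell markers were at 12630 to 16586 RPM in CD and 13352 to 25341 RPM in HFD, most of it mir-486a and mir-486b. White blood cell markers were at 279 to 333 RPM in CD and 419 to 712 RPM in HFD. The red blood cell list also held 1090 to 1639 RPM in TM4 cells, almost all of it mir-486a and mir-486b, with mir-451a at most at 0.561 RPM. In TM4 cells the epithelial list summed to at most 1.55 RPM, the smooth muscle list held 29771 to 31248 RPM in Ctrl, 30287 to 42667 RPM in CC and 61711 to 79792 RPM in Ang OE, almost all of it mir-143, and the germ cell list, most of it mir-34c, held at most 609 RPM in Ctrl, at most 595 RPM in CC and at least 1195 RPM in Ang OE. No list of Sertoli cell markers was used, and the part of these cells in the results was not tested. In bulk RNA a smaller number of cells of a type and less RNA per cell cannot be told apart.

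tRNA-Asp gave far more fragments than tRNA-Asn in every library. The total level of tRNA-Asp was 474, 498 and 383 RPM in CD sperm and 567, 491 and 518 RPM in HFD sperm. In TM4 cells it was 562 and 491 RPM in Ctrl, 667 and 632 RPM in CC, and 266 and 295 RPM in Ang OE. Ordered by mean, CC was highest with 650 ± 24.7 RPM (SD, n = 2), followed by Ctrl, HFD, CD and Ang OE, the last with 281 ± 20.1 RPM (SD, n = 2). The CC libraries lay above and the Ang OE libraries below all others, whereas Ctrl overlapped HFD and HFD overlapped CD. This order depended on reads without a genome match, since genome-matched reads alone gave 337 to 435 RPM in CD, 425 to 471 RPM in HFD, 151 and 147 RPM in Ctrl, 192 and 250.0 RPM in CC and 128 and 149 RPM in Ang OE, with Ctrl and Ang OE overlapping and sperm above all TM4 libraries. Over all reads the TM4 groups had the same order in the median isoacceptor with at least 100 reads, at 239 RPM in CC, 183 RPM in Ctrl and 137 RPM in Ang OE. How many isoacceptors separated these groups was not counted.

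The total level of tRNA-Asn did not separate any neighbouring groups. It was 34.2, 34.96 and 22.1 RPM in CD sperm and 33.4, 41.7 and 51.3 RPM in HFD sperm. In TM4 cells it was 32.5 and 29.0 RPM in Ctrl, 31.6 and 34.5 RPM in CC, and 30.5 and 35.9 RPM in Ang OE, so that every group overlapped its neighbours in the order of levels. Per base of tRNA, tRNA-Asp exceeded tRNA-Asn between 8.44-fold (Ang OE, replicate 2) and 21.7-fold (CC, replicate 1). Among the isoacceptors with at least 100 reads in every library of a group, tRNA-Asp ranked 22 of 49 by level in CD sperm and 14 of 50 in Ctrl cells, and tRNA-Asn ranked 46 of 49 and 47 of 50. Relative to all reads matched to mature tRNAs, tRNA-Asp took 0.231% to 0.463% in sperm, 2.04% and 2.17% in Ctrl, 2.45% and 2.37% in CC, and 0.724% and 0.595% in Ang OE.

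**Figure D1:**
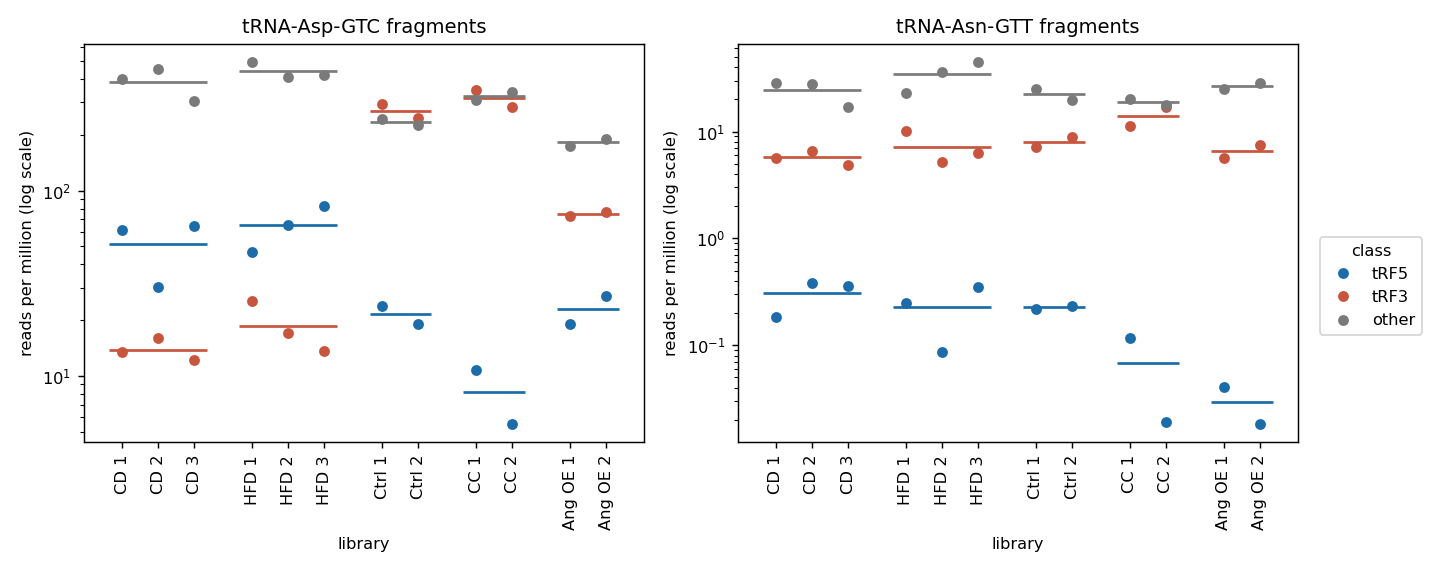
Levels of the fragments of tRNA-Asp-GTC (left) and tRNA-Asn-GTT (right) in RPM on a log axis, 1 point per library and class, with horizontal lines at group means. The tRF3 points of tRNA-Asp lie between 12.2 and 25.4 RPM in sperm and between 246 and 350 RPM in Ctrl and CC cells, with the Ang OE points between.

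The classes divided differently within the 2 tRNAs. Within tRNA-Asp, reads annotated to neither end (other) made up 80.0% to 90.7% of the reads in the 6 sperm libraries, tRF5 6.04% to 16.8% and tRF3 2.63% to 4.49%. In Ctrl cells tRF3 was the largest class, with 52.2% of the reads in replicate 1 (Wilson 95% interval 51.7 to 52.8) and 50.1% in replicate 2 (49.5 to 50.7). The share was 52.4% and 44.98% in CC cells but 27.4% (26.6 to 28.2) and 25.96% (25.3 to 26.6) in Ang OE cells. These intervals, and all others here, cover counting error only. The median isoacceptor with at least 100 reads had a tRF3 share of 48.3% in Ctrl, 54.0% in CC, 39.5% in Ang OE and 9.82% in CD. In Ctrl tRNA-Asp ranked 25 of 50 by this share. Over all mature tRNA reads the mean tRF3 share was 29.9% in Ctrl, 41.5% in CC, 9.44% in Ang OE and 2.08% in CD.

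Shares of tRF5 within tRNA-Asp separated the TM4 groups. They were 4.26% and 3.91% in Ctrl, 1.62% and 0.870% in CC, and 7.19% and 9.18% in Ang OE, with no overlap between the 3 groups. With genome-matched reads alone, Ctrl (15.9% and 13.0%) overlapped Ang OE (14.9% and 18.1%), and CC stayed below both (5.61% and 2.20%). The order of the groups was not particular to tRNA-Asp. Over all mature tRNA reads the mean tRF5 share was lowest with CC (14.8%), higher without treatment (32.9%) and highest with Ang OE (62.9%). The median isoacceptor with at least 100 reads followed the same order, at 1.32%, 1.86% and 3.82%. With 2 libraries against 2 an exact permutation test cannot go below p = 0.333, so the shares of TM4 cells were not tested.

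tRNA-Asn gave hardly any tRF5. Between 1 and 14 of its reads per library began at the 5′ end, against 262 to 2324 for tRNA-Asp. Its tRF3 share was 16.7%, 18.9% and 22.0% in CD, 30.3%, 12.5% and 12.2% in HFD, 22.0% and 30.8% in Ctrl, 35.5% and 49.1% in CC, and 18.7% and 20.9% in Ang OE. The CC libraries had the highest shares and HFD replicate 1 stood apart from the other HFD libraries.

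**Figure D2:**
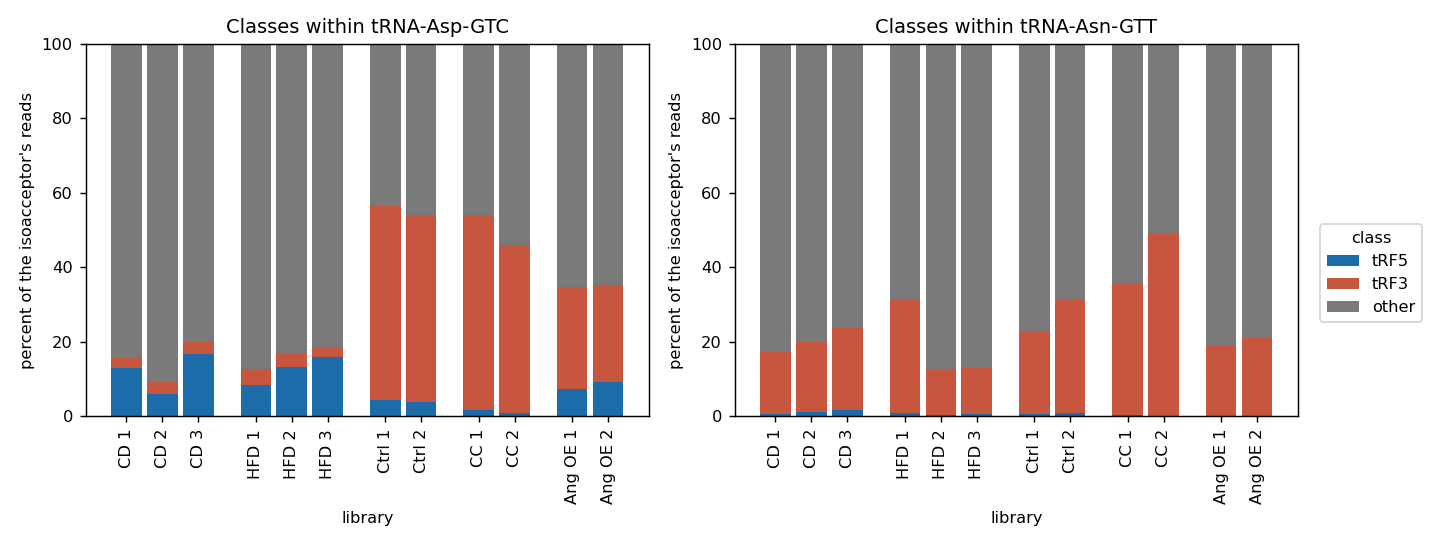
Share of each class (percent of the isoacceptor's reads) within tRNA-Asp-GTC (left) and tRNA-Asn-GTT (right), 1 bar per library. In tRNA-Asp, tRF3 fills 44.98% to 52.4% of the bars of Ctrl and CC cells, 25.96% and 27.4% of those of Ang OE cells and at most 4.49% of those of sperm.

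The first comparison asked whether the fragments differ in sperm between the diets, and 0 of the 5 member tRFs that could be tested passed the thresholds (a fold change above 1.5 with an unadjusted p below 0.05 in edgeR's quasi-likelihood test), where 16.2% of all 142 tested tRFs passed, all of them higher in HFD (7 tRFs with TMM scaling on the tRFs, 1 higher and 6 lower). No member had an unadjusted p under 0.05 in edgeR, and DESeq2 with the same library sizes called 0 members among 25 tRFs. The most abundant member, the other class of tRNA-Asp, was at 400, 452 and 307 RPM in CD and 494, 408 and 421 RPM in HFD, with overlapping groups and a log2 fold change of 0.19 ± 0.35 (SE; edgeR adjusted p = 0.639). The tRF5 of tRNA-Asp was at 61.0, 30.1 and 64.3 RPM in CD and 46.8, 65.1 and 82.9 RPM in HFD.

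Its log2 fold change of 0.33 ± 0.32 did not pass (edgeR adjusted p = 0.443), and CD replicate 2 had less than any other sperm library. The tRF3 of tRNA-Asp was at 13.4, 16.0 and 12.2 RPM in CD and 25.4, 17.1 and 13.6 RPM in HFD, a log2 fold change of 0.43 ± 0.30 (edgeR adjusted p = 0.302). HFD replicate 1 alone lay far above the CD libraries.

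The largest value among the members belonged to the other class of tRNA-Asn, at 28.3, 28.0 and 16.9 RPM in CD and 23.0, 36.4 and 44.7 RPM in HFD. Its log2 fold change was 0.51 ± 0.30 (edgeR unadjusted p = 0.0943, adjusted p = 0.263). Among all alternatives it passed the thresholds of this comparison only when HFD replicate 1 was left out, with a log2 fold change of 0.73 and an edgeR adjusted p of 0.109, and it was 0.29 without HFD replicate 3 and 0.30 without CD replicate 3. The tRF3 of tRNA-Asn was at 5.69, 6.62 and 4.87 RPM in CD and 10.1, 5.21 and 6.25 RPM in HFD, with a log2 fold change of 0.33 ± 0.31 (edgeR adjusted p = 0.428).

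The median log2 fold change of all tested tRFs was 0.44 and that of the 5 members 0.33. When libraries were scaled on the tRFs themselves, by TMM, the values of 4 members were below 0 and that of the other class of tRNA-Asn was 0.031, so no direction is given for any of the 5. The tRF5 of tRNA-Asn did not reach 10 reads in any sperm library and was not tested.

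Total levels and class shares of the diets were compared by exact permutation tests (2-sided), which cannot go below p = 0.1 with 3 libraries against 3. tRNA-Asp was at 452 ± 60.5 RPM in CD and 525 ± 38.5 RPM in HFD (SD, n = 3; exact permutation p = 0.2, adjusted over 2 levels 0.3). tRNA-Asn was at 30.4 ± 7.20 RPM in CD and 42.1 ± 8.94 RPM in HFD (SD, n = 3; exact permutation p = 0.3, adjusted 0.3). The tRF5 share within tRNA-Asp was 11.9 ± 5.44% in CD and 12.5 ± 3.94% in HFD (SD, n = 3; exact permutation p = 0.9, adjusted over 6 shares 1.0), and every other share had an adjusted p of 1.0 in that test.

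In TM4 cells the fragments were compared between CC and Ctrl, where 0 of 6 members passed (more than 2-fold, with an edgeR adjusted p below 0.05), against 0.699% of all 143 tested tRFs. The members with an unadjusted p under 0.05 in edgeR were 2, the tRF5 of tRNA-Asp and the tRF3 of tRNA-Asn, where 27.3% of all tRFs (39) had one, and DESeq2 called 1 member among 6 tRFs. The tRF5 of tRNA-Asp was at 23.9 and 19.2 RPM in Ctrl and at 10.8 and 5.50 RPM in CC. Both CC libraries lay below both Ctrl libraries, a separation that was not counted over all tested tRFs.

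The log2 fold change was -1.40 ± 0.35 (edgeR unadjusted p = 0.00459, adjusted p = 0.131). It passed in DESeq2 with the same library sizes (adjusted p = 0.0182), with the size factors of DESeq2 (adjusted p = 0.0106), after ComBat-seq with the replicate number as batch (edgeR adjusted p = 0.0226) and without CC replicate 1 (log2 fold change -1.97, edgeR adjusted p = 0.0159). Its value without CC replicate 2 was -0.997 (edgeR adjusted p = 0.345). The median log2 fold change of all 44 tested tRF5s in this comparison was -0.42.

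The tRF3 of tRNA-Asn was at 7.15 and 8.92 RPM in Ctrl and 11.2 and 16.9 RPM in CC. The log2 fold change was 0.81 ± 0.29 (edgeR unadjusted p = 0.0256, adjusted p = 0.147), where the 49 tested tRF3s had a median of 0.59 and 100% were above 0. Without CC replicate 1 it became 1.07, with an edgeR adjusted p of 0.0278, and without CC replicate 2 it became 0.48, with an edgeR adjusted p of 0.619. The other class of tRNA-Asp was at 244 and 226 RPM in Ctrl and 307 and 342 RPM in CC, with a log2 fold change of 0.47 ± 0.27 (edgeR adjusted p = 0.267), close to the median of 0.43 over all tested tRFs.

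The tRF3 of tRNA-Asp was at 293 and 246 RPM in Ctrl and 350 and 284 RPM in CC, and the other class of tRNA-Asn at 25.1 and 19.8 RPM in Ctrl and 20.3 and 17.5 RPM in CC. Both overlapped between the groups, with log2 fold changes of 0.23 ± 0.28 and -0.25 ± 0.22 (edgeR adjusted p = 0.544 and 0.429). The value of the tRF3 of tRNA-Asp was -0.092 with TMM, -0.10 with the size factors of DESeq2 and -0.83 with genome-matched reads alone (edgeR adjusted p = 0.174), so no direction is given for it.

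Overexpression of angiogenin was compared with the same Ctrl libraries. Here 1 of 6 members passed, where 9.79% of all 143 tested tRFs did. Of the tested tRFs 4.2% (6) were called as higher and 5.59% (8) as lower, and 13 and 11 were with TMM. The tRF3 of tRNA-Asp was at 293 and 246 RPM in Ctrl and at 73.0 and 76.5 RPM in Ang OE. Both Ang OE libraries lay far below both Ctrl libraries, a separation that was not counted over all tested tRFs either.

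The tRF3 of tRNA-Asp fell by 1.85 ± 0.29 on the log2 scale, a 3.61-fold difference (edgeR adjusted p = 0.0167). It ranked 4 from the lowest of the 143 changes, behind the tRF3s of tRNA-Ile-AAT and tRNA-Ile-TAT and the tRF5 of tRNA-Asn, which had 3 reads in Ang OE. All 8 tRFs that fell were tRF3s, and the median log2 fold change of the 49 tested tRF3s was -0.65. The call held when each library was left out in turn, with values from -1.97 to -1.72.

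The fall lay in the fragments that end in CCA. Fragments of tRNA-Asp with the CCA end were at 286 and 240 RPM in Ctrl, 346 and 280.5 RPM in CC and 68.9 and 71.7 RPM in Ang OE. They made up 97.5% and 97.6% of the tRF3 reads of tRNA-Asp in Ctrl and 94.5% and 93.7% in Ang OE. Counted as a class of their own they fell by 1.90 ± 0.28 on the log2 scale (edgeR adjusted p = 0.0152).

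The remaining 3′ fragments of tRNA-Asp, which stop before the CCA, were at 7.43 and 5.85 RPM in Ctrl and 4.02 and 4.80 RPM in Ang OE, with a log2 fold change of -0.59 ± 0.27 that did not pass (edgeR adjusted p = 0.143). The authors' annotation recorded every CCA-ended read of tRNA-Asp as having no match to the genome. With genome-matched reads alone the tRF3 of tRNA-Asp therefore lost its call (log2 fold change -0.59, edgeR adjusted p = 0.144). In tRNA-Asn at least 90.4% of the tRF3 reads of each library ended in CCA, and only 0% to 12.7% of its tRF3 reads had no genome match.

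**Figure D3:**
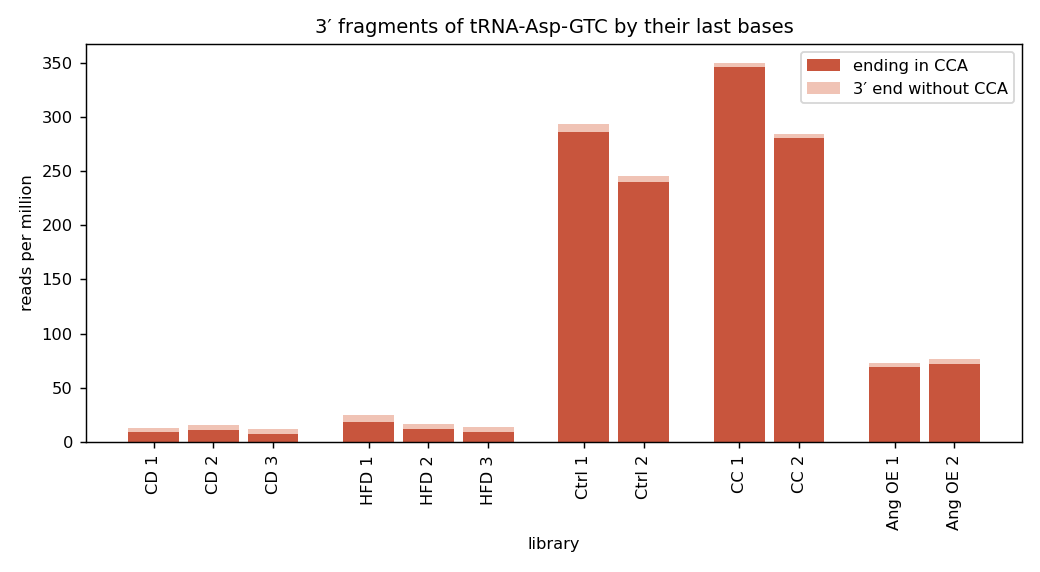
Level of the 3′ fragments of tRNA-Asp-GTC in RPM, 1 bar per library, split into fragments that end in CCA (dark) and 3′ end fragments without it (light). Dark parts reach 240 to 346 RPM in Ctrl and CC cells, 68.9 and 71.7 RPM in Ang OE cells and at most 18.4 RPM in sperm.

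The tRF5 of tRNA-Asp, at 23.9 and 19.2 RPM in Ctrl and 19.1 and 27.1 RPM in Ang OE, overlapped between the groups, with a log2 fold change of 0.10 ± 0.35 (edgeR adjusted p = 0.836). The median of all 44 tested tRF5s was 0.63 in this comparison. The other class of tRNA-Asp was at 174 and 191 RPM in Ang OE, below the 244 and 226 RPM of Ctrl, and its log2 fold change of -0.36 ± 0.27 did not pass (edgeR adjusted p = 0.352). It passed as lower, at -1.13 (edgeR adjusted p = 0.0131), with the reads matched to mature tRNAs as library size, a scaling that called 61 of all 143 tRFs.

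In tRNA-Asn the tRF3 was at 5.69 and 7.48 RPM in Ang OE against 7.15 and 8.92 RPM in Ctrl, and the other class at 24.8 and 28.4 RPM against 25.1 and 19.8 RPM. Their log2 fold changes were -0.29 ± 0.29 and 0.24 ± 0.22, with groups that overlapped (edgeR adjusted p = 0.476 and 0.420), and the tRF3 passed at -1.09 (edgeR adjusted p = 0.0180) in the same scaling alone. The tRF5 of tRNA-Asn had 25 reads over both Ctrl libraries, 7 over both CC libraries and 3 over both Ang OE libraries, and it entered the test only through its Ctrl reads. It is among the 6 members counted as tested in TM4 cells, but no test of it is reported. Its fitted fold changes rest on these few reads and give no bound.

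**Figure D4:**
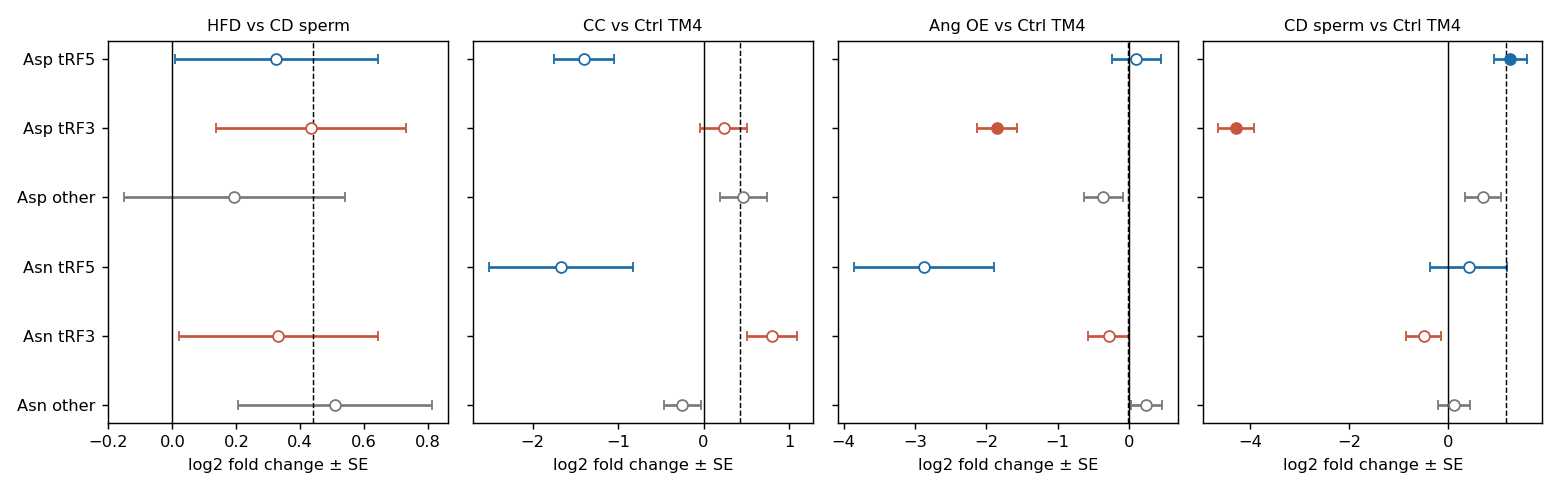
Log2 fold changes of the 6 member tRFs with their standard errors from edgeR in 4 comparisons, filled where the thresholds were passed, with a dashed line at the median of all tested tRFs. The tRF3 of tRNA-Asp is filled at -1.85 for Ang OE against Ctrl and at -4.28 for CD sperm against Ctrl cells, and the tRF5 of tRNA-Asp is filled at 1.27 in the latter.

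**Figure D5:**
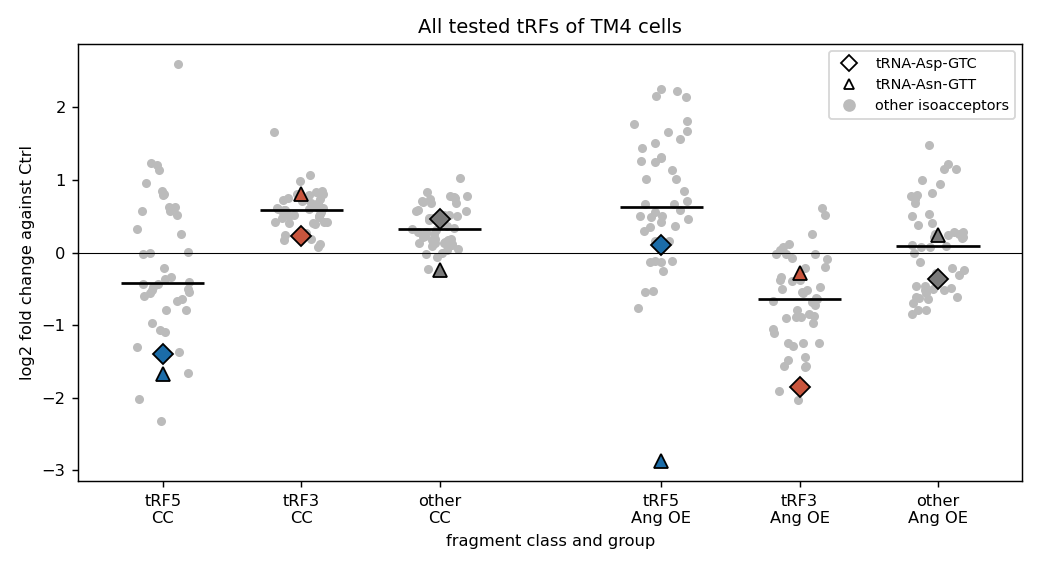
Log2 fold changes of all tested tRFs against Ctrl in TM4 cells by class, for CC and Ang OE, with tRNA-Asp-GTC as diamonds, tRNA-Asn-GTT as triangles, other isoacceptors as grey points and medians as lines. In Ang OE the diamond of tRF3 lies at -1.85, below the median of -0.65 of its class, and the triangle at -2.88 is the tRF5 of tRNA-Asn, which rests on 3 reads in Ang OE.

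Sperm of CD mice and Ctrl TM4 cells were set side by side to show how the fragments depend on the source. Of the 6 members, 2 passed the same thresholds, where 79.0% of all 143 tested tRFs did, 73 higher and 40 lower (43 and 50 with TMM), and the median log2 fold change was 1.17. The tRF3 of tRNA-Asp was lower in sperm by a factor of 19.4, with a log2 fold change of -4.28 ± 0.36 (edgeR adjusted p = 6.08e-27). The median of the 49 tested tRF3s was -1.67, and 33 of them were called lower. The value for tRNA-Asp was -5.33 with TMM and -6.70 with the reads matched to mature tRNAs as library size. This difference too lay in the CCA-ended fragments, at 7.94 to 11.5 RPM in CD sperm against 240 and 286 RPM in Ctrl, and with genome-matched reads alone it was -0.58 (edgeR adjusted p = 0.122).

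The tRF5 of tRNA-Asp was higher in CD sperm, with a log2 fold change of 1.27 ± 0.34 (edgeR adjusted p = 0.000295), where the median of the 44 tested tRF5s was 2.58. It no longer passed with TMM (0.30, edgeR adjusted p = 0.516). It turned to -1.27 and was called lower when the reads matched to mature tRNAs served as library size, and these made up 10.8% to 16.6% of the reads in CD sperm and 2.27% to 2.76% in Ctrl. The other class of tRNA-Asp (0.72 ± 0.36, edgeR adjusted p = 0.0566) and the tRF3 and other class of tRNA-Asn did not pass. With genome-matched reads alone the other class of tRNA-Asp passed as higher in sperm (1.49, edgeR adjusted p = 0.000278), among 106 of 141 tRFs. With the reads matched to mature tRNAs as library size the same class was called lower, at -1.71, so no direction is given for it. The tRF3 of tRNA-Asn, at -0.49 ± 0.36 (edgeR adjusted p = 0.191), passed as lower in sperm with the size factors of DESeq2 (-1.43, DESeq2 adjusted p = 1.78e-08), with TMM (-1.54, edgeR adjusted p = 0.000118) and with the reads matched to mature tRNAs as library size (-2.94, edgeR adjusted p = 2.24e-06). Tissue, cell line and library preparation cannot be told apart in this comparison.

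CCA-ended fragments were not the only tRNA-Asp reads without a genome match. The share of such reads in tRNA-Asp was 9.12% to 17.5% in sperm, 73.2% and 70.0% in Ctrl, 71.2% and 60.5% in CC, and 51.9% and 49.3% in Ang OE. In the other class, whose reads were annotated to neither end, it was 8.95% to 16.4% in sperm and 51.1% and 45.9% in Ctrl, while the tRF5 of tRNA-Asp had 0 such reads in every library. Within tRNA-Asn at most 2.66% of the reads of any library had no genome match.

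The fragments of the other tRNAs with queuosine, His-GTG and Tyr-GTA, were set beside the members. Of the 12 tRFs of these 4 tRNAs, 11 were tested in sperm and 3 passed the unadjusted rule with higher levels in HFD (Tyr-GTA tRF5 and tRF3 and His-GTG tRF3), of which 0 were members, where 16.2% of all tRFs passed, with a median log2 fold change of 0.43 beside 0.44 for all tRFs. With TMM none of the 3 passed, at log2 fold changes of 0.26, 0.16 and 0.14, whereas the tRF5 and the other class of His-GTG passed the unadjusted rule as lower in HFD (-0.89 and -0.74, edgeR adjusted p = 0.412 and 0.855). In Ang OE 2 rose, the tRF5 and the other class of Tyr-GTA with log2 fold changes of 1.51 and 1.48 (edgeR adjusted p = 0.0432 and 0.0391), and 1 fell, the tRF3 of tRNA-Asp, where 9.79% of all tRFs passed. Both Tyr-GTA classes passed with TMM as well but not with the reads matched to mature tRNAs as library size (0.69 and 0.67). That scaling called 0 of the list higher and 4 lower, all of them members. In CC none of the 12 passed (list median 0.06), and across CD sperm and Ctrl cells 4 were higher in sperm and 3 lower, where 79.0% of all tRFs passed (list median 0.27). With TMM these counts were 3 and 5, and with the reads matched to mature tRNAs as library size 0 and 9. The tRF3s of His-GTG (-0.07 ± 0.26) and Tyr-GTA (-0.20 ± 0.32) did not pass in Ang OE (edgeR adjusted p = 0.839 and 0.652). With the reads matched to mature tRNAs as library size they were at -0.83 and -0.98, below the fold threshold (edgeR adjusted p = 0.0548 and 0.0428).

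Of the 9 tRFs of the DNMT2 targets Asp-GTC, Gly-GCC and Val-AAC, 0 were called in HFD sperm and in CC by edgeR (16.2% and 0.699% of all tRFs), and 1 fell in Ang OE, the tRF3 of tRNA-Asp (9.79% of all tRFs were called). With TMM the tRF5 of Val-AAC passed the unadjusted rule as lower in HFD (-1.09, edgeR adjusted p = 0.412). Gly-GCC, the isoacceptor that makes up most sperm tRF5, had a tRF3 change of -1.05 ± 0.48 in Ang OE and Val-AAC of -0.38 ± 0.29 (edgeR adjusted p = 0.153 and 0.352). With the reads matched to mature tRNAs as library size both passed as lower, at -1.93 and -1.16 (edgeR adjusted p = 0.00652 and 0.0216), beside -2.61 for the tRF3 of tRNA-Asp, in a scaling that called 59 of all tRFs lower and 2 higher. The list medians were 0.22 in HFD sperm, 0.47 in CC and 0.07 in Ang OE, beside -0.01 for all tRFs in the latter. Across CD sperm and Ctrl cells 8 of the 9 passed, 5 higher in sperm and 3 lower, where 51.0% of all tRFs were higher and 28.0% lower, the latter being the tRF3s of all 3 tRNAs. With TMM the counts were 3 and 3, and with the reads matched to mature tRNAs as library size 3 and 5.

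Across the 12 libraries, with levels as log2(RPM + 1) centred within sperm and within TM4 cells, the tRFs most like the tRF5 of tRNA-Asp were the tRF5s of Val-AAC (Pearson's r = 0.82), Gly-TCC (0.81) and Thr-TGT (0.81) among 135 compared. The tRF5 of tRNA-Asn had too few reads for such a likeness, its highest value being 0.50 with the tRF5 of Gln-TTG, followed by 0.30 with the tRF3 of tRNA-Asp and 0.27 with the tRF3 of Gly-GCC. These values share library and depth between their points and are descriptive.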

How the data were processed

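Small RNA libraries of 6 sperm pools and 6 TM4 libraries were used, with groups from the sample labels. According to the methods and processing notes, the authors trimmed reads (Trimmomatic 0.40), kept lengths of 15 to 45 bases and annotated them with SPORTS1.1, allowing 1 mismatch. The processing notes name mm10. The deposited files hold estimated counts per class and subclass, not normalized, in which a read matching several subclasses is divided among them.

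Reads with and without a genome match were added, the other class being the total minus its end rows. Rounded counts of tRFs with at least 10 reads in 3 sperm or 2 TM4 libraries were tested with edgeR 4.0.16 (quasi-likelihood, Benjamini-Hochberg adjustment over all tRFs) with clean reads without rRNA as library size. TM4 contrasts used a model of all 6 TM4 libraries. DESeq2 1.42.0, other library sizes, filters and read sets, ComBat-seq (sva 3.50.0; the authors' methods use it against batch effects in the TM4 data without naming the batches, so the replicate number stood in for them), a replicate block and leaving out each library were alternatives. Replicate libraries were further apart than counting error allows. The analysis was tested on simulated data. Members, lists and thresholds were chosen with earlier results of these data known. The text names every member tRF, the other tRNAs of the lists and, for each tRF5, the 3 tRFs most like it, and the tRFs ranked below the tRF3 of tRNA-Asp were named after their values were seen.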

Additional observations from a re-analysis of the deposited data

Results flagged for a closer look

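In data outside the comparisons, the fragments of the mitochondrial tRNA-Asn-GTT, a separate gene of the mitochondrial genome, had higher levels in every HFD library than in any CD library. The share of all tRFs separated in this way was not counted, and 91.5% of the tested tRFs had a log2 fold change above 0 in this comparison. The mitochondrial tRNA-Asn was at 27.6, 27.7 and 36.5 RPM in HFD (mean 30.6) and at 26.9, 26.8 and 24.5 RPM in CD (mean 26.1). HFD replicate 3 alone lay far above the CD libraries. The log2 ratio of these means, 0.23, is smaller than the median log2 fold change of 0.44 over all tested tRFs, which became -0.06 with TMM, so no direction relative to the other tRFs is given. This was noticed by looking for signal above the control libraries and was not tested, and in TM4 cells the mean was 25.5 RPM in Ctrl, 19.7 RPM in CC and 10.7 RPM in Ang OE. The mitochondrial tRNA-Asp-GTC stayed at or below 2.62 RPM in all libraries.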

How the results depend on the processing

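The labels do not say whether the replicate number was a shared batch, and same-numbered libraries deviated together with r = 0.02, 0.21 and 0.21 in sperm, 0.76 for Ctrl and CC, and -0.22 for Ctrl and Ang OE. With the replicate block, 0 members were called in HFD, 0 in CC, 1 in Ang OE and 2 in CD sperm against Ctrl, as without it, among 28, 2, 18 and 107 of all tRFs. With the numbers of the Ang OE libraries exchanged, an alternative chosen after seeing the data, the replicate block called 1 member and 28 tRFs. Leaving out each library gave 0 to 1 member calls in HFD, 0 to 2 in CC, 1 to 1 in Ang OE and 2 to 2 in CD sperm against Ctrl. The call more in HFD came without HFD replicate 1 and the calls in CC came without CC replicate 1. In CC 1 member was called by DESeq2 with either scaling (6 tRFs in each) and by ComBat-seq (13). In Ang OE the members called were 0 with genome-matched reads alone (18 of all tRFs), 2 in a model of Ctrl and Ang OE alone (30) or after ComBat-seq (34), and 4 with the reads matched to mature tRNAs as library size (61, of which 59 lower), which called 6 members and 100 tRFs in CD sperm against Ctrl. The second call in the model of 2 groups and after ComBat-seq, and 1 of the 4, was the tRF5 of tRNA-Asn, which was tested only through its Ctrl reads and supports nothing. Over all tRFs the calls ranged over the alternatives from 4 to 54 in HFD (54 without CD replicate 2, and 7 and 8 when CD replicate 1 or 3 was left out), from 1 to 26 in CC (26 without CC replicate 1), from 3 to 61 in Ang OE (3 without Ctrl replicate 2) and from 93 to 145 in CD sperm against Ctrl.

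Scaling decided the direction of members with small changes and, in CD sperm against Ctrl, also that of the tRF5 of tRNA-Asp, a called member. In HFD the median of all tRFs was 0.44 and became -0.06 with TMM, where the log2 fold changes of tRNA-Asp were -0.30 (other), -0.071 (tRF3) and -0.26 (tRF5) and that of the tRNA-Asn tRF3 -0.17; with the size factors of DESeq2 they were -0.20 (other) and -0.16 (tRF5) in tRNA-Asp and -0.078 (tRF3) in tRNA-Asn. In CC the tRF3 of tRNA-Asp was -0.10 with the size factors of DESeq2, -0.092 with TMM and -0.83 with genome-matched reads or without the CCA fragments. In Ang OE, with the reads matched to mature tRNAs as library size, the other class of tRNA-Asn was -0.52 and the tRF5 of tRNA-Asp -0.68, and the latter ranged from -0.17 to 0.33 when a library was left out (-0.05 without Ctrl replicate 2, -0.17 without Ang OE replicate 2). In CD sperm against Ctrl, the size factors of DESeq2, TMM and the mature tRNA reads gave -0.83, -0.95 and -2.30 for the other class of tRNA-Asn, -0.49, -0.60 and -2.03 for its tRF5 and -0.23, -0.34 and -1.71 for the other class of tRNA-Asp, and the last scaling gave -1.27 for the tRF5 of tRNA-Asp. There the other class of tRNA-Asn was -0.15 over all clean reads, -0.0032 without CD replicate 1 and -0.042 without Ctrl replicate 2, and the tRF3 of tRNA-Asn without the CCA fragments was 0.71.

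Among levels (log2 ratios to the control), tRNA-Asp in CC was 0.30, or 0.20 as a share of mature tRNA reads and 0.57 with genome-matched reads, and in Ang OE -0.91, or -1.67 and -0.10. tRNA-Asn was 0.11 in CC and 0.11 in Ang OE, and -0.0024 and -0.66 as a share of mature tRNA reads. Leaving out libraries gave 0.11 to 0.29 in HFD, 0.21 to 0.41 in CC and -1.002 to -0.81 in Ang OE for tRNA-Asp, and 0.29 to 0.61, 0.03 to 0.19 and -0.0096 to 0.22 for tRNA-Asn. Among class shares (percentage points), the tRF5 share within tRNA-Asp in HFD ranged from -2.32 to 3.06 when a library was left out (-2.32 without CD replicate 2, -1.14 without HFD replicate 3), and with genome-matched reads it was -10.5 in CC and 2.08 in Ang OE. In HFD, leaving out a library gave a tRF3 share within tRNA-Asp of -0.019 (without HFD replicate 1) to 0.909 and an other share of -3.57 to 1.79 (0.23 without HFD replicate 3, 1.79 without CD replicate 2). In tRNA-Asn the tRF3 share ranged from -6.88 without HFD replicate 1 to 2.19 without HFD replicate 3 (2.04 without HFD replicate 2, 0.54 when CD replicate 3 was left out) and the other share from -1.67 without HFD replicate 2 to 7.51 without HFD replicate 1 (-1.59 and -0.27 without HFD replicate 3 and CD replicate 3). In CC the tRF3 share within tRNA-Asp ranged from -6.19 without CC replicate 1 to 1.23 without CC replicate 2. Without the CCA fragments the tRF3 share in tRNA-Asn in CC was -0.45 and that of tRNA-Asp in Ang OE 0.31, and with genome-matched reads the other share of tRNA-Asp in Ang OE was -0.81. The causes were not tested, apart from the number of reads that an alternative leaves.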
